A study of Homo sapiens with 2 samples.

Results

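The genes described here are 37 genes of purine and pyrimidine metabolism that the authors' deposited table lists as changed after ezetimibe in SNU-449, a cell line from human hepatocellular carcinoma. They were chosen by being called changed in this comparison: they are the listed genes of the KEGG pathways Purine metabolism and Pyrimidine metabolism, 52 in all, without the 15 that the table also lists under 13 pathways of DNA replication and repair, p53, calcium, cAMP and receptor signalling, or sugar and amino acid metabolism. The 37 genes are part of 2238 listed genes. RNA of 1 culture treated with ezetimibe for 24 h was compared with RNA of 1 control culture of the same line in serum-containing medium, and the dose is not stated in the labels. Ezetimibe lowers cholesterol by blocking NPC1L1, the sterol carrier of gut and liver. For a single gene the table gives a direction alone, without its level, size of change or error, so direction is the only measurement. The name of the comparison puts ezetimibe before control, and up is taken to mean higher after ezetimibe. With 1 library per condition no difference has a replicate check, and every statement describes these 2 libraries. The depth of the libraries is unknown from this table.

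Cells make nucleotides from small precursors (de novo synthesis) or recover them from nucleosides and bases (salvage). Ribonucleotide reductase turns ribonucleotides into deoxynucleotides, and the thymidylate enzymes add dTTP, the building block that only DNA uses; proliferating cells are known to raise both at S phase. The same KEGG maps also hold enzymes that destroy nucleotides, inside and outside the cell, and the enzymes that make and break the second messengers cAMP and cGMP. The liver is known as a main site of purine synthesis, uric acid formation and pyrimidine breakdown.

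Of the 37 genes, 30 were listed as down after ezetimibe and 7 as up. The 7 were the nucleotide hydrolases ADPRM, HDDC3 and NUDT16, the AMP deaminase AMPD3, the cyclic nucleotide phosphodiesterase PDE2A, and UPP1 and UCKL1 of uridine use. The share up was 18.9% (exact Clopper-Pearson 95% interval 7.96 to 35.2, counting error among genes only), beside 32.5% of all 2238 listed genes, and the share down was 81.1% beside 67.5%. The interval includes the share of all listed genes. Over the 8877 background genes of the table, 25.2% were listed as changed, 8.20% as up and 17.0% as down. The choice of the 37 rests on their being listed in this same comparison, so these counts are a description without a test. Of the 15 genes that were taken out, the adenylyl cyclase ADCY8 was listed as up and the other 14 as down.

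**Figure D1:**
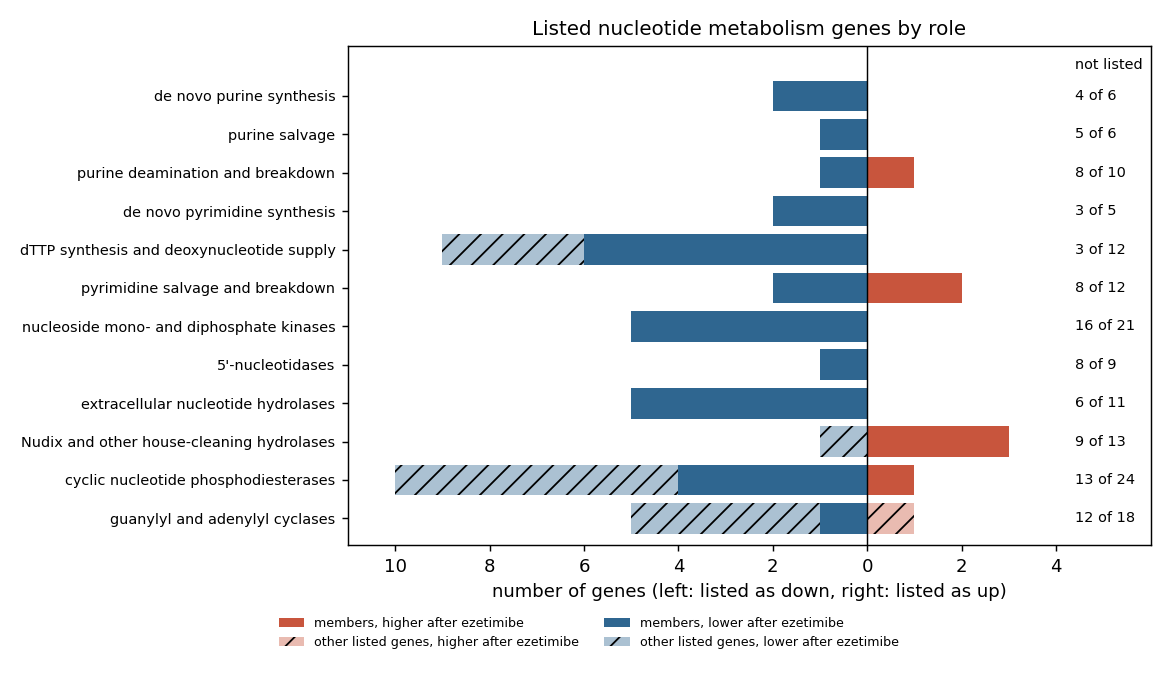
Number of genes listed as down (left of 0) and as up (right of 0) after ezetimibe in each role list that holds one of the 37 genes. Solid bars are the 37 genes and hatched bars other listed genes of the same role list. The column at the right gives how many symbols of each list were not listed, including, under deoxynucleotide supply, a symbol that matched no gene ID. The solid bar of the 6 deoxynucleotide supply genes lies on the down side. That of the 3 Nudix and other house-cleaning hydrolases lies on the up side, and that of the 5 extracellular nucleotide hydrolases on the down side.

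Genes under both pathways were all listed as down. Of these 9 genes, 0 were up (exact 95% interval up to 33.6%): AK9, DCK, ENPP1, ENTPD4, ENTPD5, ENTPD8, NME7, NT5E and RRM1. Of the 12 genes under Pyrimidine metabolism alone, 2 were up and 10 down. Of the 16 under Purine metabolism alone, 5 were up (31.25%) and 11 down. Beside these counts, 32.5% of all listed genes were up and 67.5% down. The interval of the 9 genes under both pathways includes that share up. In the authors' deposited table, Pyrimidine metabolism had 23 listed genes of 57, with 2 up and 21 down, a rich factor (the share of changed genes in the pathway over the share of background genes in it) of 1.60, p = 0.0255 and q = 0.116. In the authors' deposited table, Purine metabolism had 40 listed genes of 137, with 6 up and 34 down, a rich factor of 1.16 and p = 0.315. Both p-values count genes, not cultures, and the rule used both lists. DNA replication, set beside them from the authors' deposited table, had 1 gene up and 27 down.

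**Figure D2:**
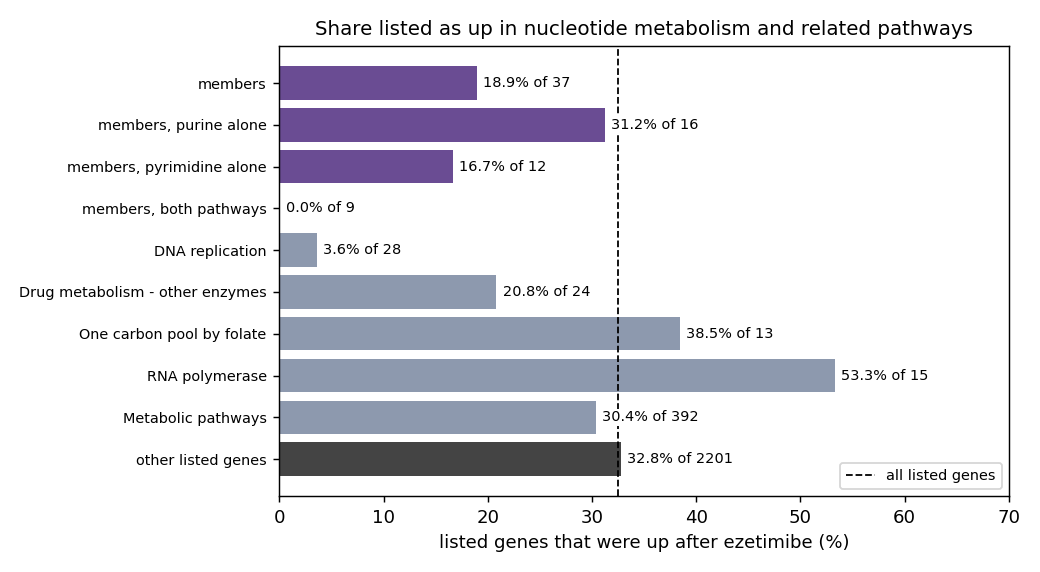
Share of listed genes that were up after ezetimibe, in percent, for the 37 genes and their split by pathway (purple), 5 related KEGG pathways (grey) and the 2201 other listed genes (black); the dashed line is the share of all listed genes. The 37 genes stand at 18.9%, between DNA replication at 3.57% and RNA polymerase at 53.3%.

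In the role list of deoxynucleotide supply 9 of 12 symbols were listed, 9 as down and 0 as up. Of the 9, 6 belong to the 37. The 3 not listed include a symbol that could not be listed, since 11 of the 12 matched a gene ID. Beside these counts, 25.2% of background genes were listed as changed and 67.5% of all listed genes were down. RRM1, the large catalytic subunit of ribonucleotide reductase (ENSG00000167325; chromosome 11, 4094707 to 4138876, plus strand, GENCODE release 29 on GRCh38), was down. Its small subunits RRM2 and RRM2B, taken out because they also belong to p53 signaling, were listed as down too. The first of the thymidylate enzymes, TYMS, which methylates dUMP to dTMP (chromosome 18, 657604 to 673578), was down. So was DTYMK, the kinase that takes dTMP on to dTDP (chromosome 2, 241675742 to 241686991). DUT, which hydrolyses dUTP and so keeps uracil out of DNA (chromosome 15, 48331011 to 48343373), was down as well. The thymidine kinases of both compartments were down: TK1 of the cytosol, known for its peak at S phase (chromosome 17, 78174075 to 78187233), and TK2 of mitochondria, which is not tied to the cell cycle (chromosome 16, 66508003 to 66552544). SAMHD1, counted among the 9 although it degrades deoxynucleotides and lies outside both pathways in this table, was listed as down. In RNA of a whole culture, fewer cells in S phase and less of these RNAs per cell cannot be told apart. The 37 genes without these 6 had 7 up and 24 down (22.6% up).

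The DNA before the starts of these genes is shown because 3 of the promoters that held a searched motif belong to deoxynucleotide and CTP synthesis. The sequences are from RefSeq (GRCh38.p14), 5′ to 3′ on the strand of the gene, with the motif in capitals. RRM1 is given from position -243 to -4 relative to its start (chr11:4094442-4094681, plus strand), with an E2F core on the opposite strand and a CCAAT box; the stretch lies before every GENCODE exon of RRM1. DTYMK is given with the CCAAT box nearest its start (chr2:241686823-241686852, minus strand), and CTPS1 with an NRF1 core on the opposite strand (chr1:40979614-40979643, plus strand). Both of these stretches overlap an exon of another transcript of the same gene in GENCODE.
RRM1: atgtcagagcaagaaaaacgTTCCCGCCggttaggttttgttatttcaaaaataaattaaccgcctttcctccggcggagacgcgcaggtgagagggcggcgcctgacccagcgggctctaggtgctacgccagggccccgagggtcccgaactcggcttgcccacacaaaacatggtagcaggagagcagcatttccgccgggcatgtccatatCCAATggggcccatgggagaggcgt
DTYMK: ctgttgacgccggCCAATgggagctccgga
CTPS1: gtcctgtcccGCGCCTGCGCactccaggcc

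The listed genes of de novo synthesis were down, beside 67.5% of all listed genes, and 25.2% of background genes were listed as changed. Of 6 enzymes of de novo purine synthesis, PFAS and PAICS were listed, both as down. PFAS, a glutamine-using enzyme of the early pathway, lies on chromosome 17 (8247618 to 8270491), and PAICS, a bifunctional enzyme of the middle of the pathway, on chromosome 4 (56435741 to 56464579). Neither PPAT, the committed step, nor GART, ADSL or ATIC was listed. Of 5 genes of de novo pyrimidine synthesis, both CTP synthases were down, CTPS1 (chromosome 1, 40979335 to 41012565) and CTPS2 (chromosome X, 16588003 to 16712936). These enzymes amidate UTP to CTP, and CTPS1 is known for its need in proliferating lymphocytes. CAD, DHODH and UMPS, which build UMP, were not listed. None of the 5 genes that lead from IMP to AMP and GMP was listed, IMPDH1, IMPDH2 and GMPS among them. Of 5 genes of the supply of phosphoribosyl pyrophosphate, the shared sugar donor, PRPS2 was listed, as down, and was taken out for its place in the pentose phosphate pathway. Absence from the table can mean no call, no expression or no pathway annotation, and these cannot be told apart.

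Salvage and breakdown held genes of both directions. Beside them, 25.2% of background genes were listed as changed, and of all listed genes 32.5% were up and 67.5% down. DCK, the deoxycytidine kinase that also takes purine deoxynucleosides and activates drugs such as gemcitabine (chromosome 4, 70992538 to 71030914), was down, and was the single listed gene of 6 in purine salvage. In the list of pyrimidine salvage and breakdown 4 of 12 genes were listed. UPP1, the uridine phosphorylase that splits uridine into uracil and ribose phosphate, was up, as was UCKL1, a relative of the uridine-cytidine kinases. DPYD, the rate-limiting enzyme of uracil and thymine breakdown and of fluorouracil clearance, was down, and so was UPB1, which carries the last reaction of that route. In purine breakdown AMPD3, an AMP deaminase that turns AMP into IMP, was up, and XDH, the xanthine oxidoreductase that makes uric acid, was down; the other 8 of 10 genes in that list were not listed.

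Of 21 genes of nucleotide kinases, 5 were listed, a share near the 25.2% of background genes listed as changed, and all 5 were down, beside 67.5% of all listed genes. They were the adenylate kinases AK6, AK7 and AK9, the UMP-CMP kinase CMPK1 and NME7, a nucleoside diphosphate kinase relative found at centrosomes and cilia. AK6 was also listed under Ribosome biogenesis in eukaryotes. The abundant cytosolic forms AK1, NME1 and NME2 were not listed, nor was GUK1, the guanylate kinase.

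Of 11 genes of enzymes that act on nucleotides outside the cell or in the secretory pathway, 5 were listed, 5 as down and 0 as up, and 6 were not listed. Beside them, 25.2% of background genes were listed as changed and 67.5% of all listed genes were down. ENPP1, which cleaves extracellular ATP to AMP and pyrophosphate, and ENPP4, its relative at the cell surface, were down. ENTPD8 of the plasma membrane, known from the bile canaliculi of rodent liver, and ENTPD4 and ENTPD5, which hydrolyse nucleoside diphosphates in the Golgi and the endoplasmic reticulum, were down. NT5E (CD73), which makes adenosine from extracellular AMP, was down and was the single listed gene of 9 in the list of 5′-nucleotidases. ENTPD1 (CD39), the enzyme known to act before CD73, was not listed.

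All 3 of the 37 genes that fall in the list of Nudix and other house-cleaning hydrolases were up, beside 32.5% of all listed genes. NUDT16 hydrolyses inosine diphosphate and removes caps from RNA. ADPRM cleaves ADP-ribose and CDP-alcohols, and HDDC3 (MESH1) is the animal counterpart of the bacterial enzyme that hydrolyses the alarmone ppGpp. NUDT12, a cap and NADH hydrolase outside both pathways in this table, was listed as down, and the other 9 of 13 genes were not listed.

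Cyclic nucleotide enzymes made up 6 of the 37 genes. PDE2A, which cGMP activates and which hydrolyses both cAMP and cGMP, was up. PDE5A, the cGMP-specific target of sildenafil, was down, and PDE7A, PDE7B and PDE8A, which hydrolyse cAMP, were down. With the 6 phosphodiesterases taken out for their place in calcium or cAMP signaling, 11 of 24 genes of this list were listed, 1 as up and 10 as down. NPR2, the receptor guanylyl cyclase for C-type natriuretic peptide, was down; its relative NPR1, taken out, was listed as down too. Of the 18 cyclases in the list, 6 were listed, with 1 up and 5 down. Beside both lists, 25.2% of background genes were listed as changed and 67.5% of all listed genes were down.

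Related enzymes mostly shared a direction, which was down, as it was for 81.1% of the 37 genes and 67.5% of all listed genes. Of 6 groups of related enzymes with more than 1 gene among the 37, 5 had every such gene down. Among them were the CTP synthases, the ENTPD enzymes and PDE7A with PDE7B. The exception was PDE2A, up, beside PDE5A, down, which belong to separate phosphodiesterase families and were put in 1 group by hand. Genes of 1 family share sequence, and the labels do not say how reads that match more than 1 of them were counted.

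Folate enzymes, which carry the carbon for purines and dTMP and lie outside both pathways, were split. Of 14 genes in the list, 12 were listed, 6 as up and 6 as down. The mitochondrial enzymes SHMT2, MTHFD2 and MTHFD1L were up, and the cytosolic enzymes SHMT1 and MTHFD1 were down. Compartment did not separate all of them, since MTHFD2L, GLDC and AMT of mitochondria were down and FPGS and ALDH1L1 were up. The list of DNA polymerase and primase subunits, which use the deoxynucleotides, had 10 of 13 genes listed, with POLE3 up and 9 down. The same shares of background and of listed genes stand beside these counts. The 13 and the 9 include PNPT1, which is not a DNA polymerase or primase subunit.

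GC content, the share of G and C bases, was higher at the median in genes up than in genes down, among the 37 genes as in the whole table. In the longest transcript of each gene, the 7 genes up had a median of 48.5% G and C, with ADPRM at 41.8%, AMPD3 at 47.8%, NUDT16 at 48.4%, UPP1 at 48.5%, HDDC3 at 56.2%, PDE2A at 58.5% and UCKL1 at 61.7%. The 30 genes down had a median of 43.3% and a range of 34.4% (ENPP4) to 67.0% (ENTPD8), so the directions overlapped widely. Over all listed genes the medians were 55.2% for genes up and 43.6% for genes down. The 37 genes had a median of 44.8%, beside 47.0% for all listed genes. Of the 22 with a GC content below the median of all listed genes, 1 was up (4.55%), beside 12.3% of all 1118 such listed genes; of the 15 at or above it, 6 were up (40.0%), beside 52.7% of 1119. The part of base composition in the directions was not tested. Among the deoxynucleotide genes, TK1 at 62.8%, DTYMK at 59.7%, TK2 at 51.0% and TYMS at 49.8% lay above that median and were down, while DUT at 44.2% and RRM1 at 43.5% lay below it. Of the de novo and salvage enzymes, PFAS lay above it at 58.2%, and CTPS2 at 45.1%, CTPS1 at 43.2%, PAICS at 42.3% and DCK at 38.8% lay below it.

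**Figure D3:**
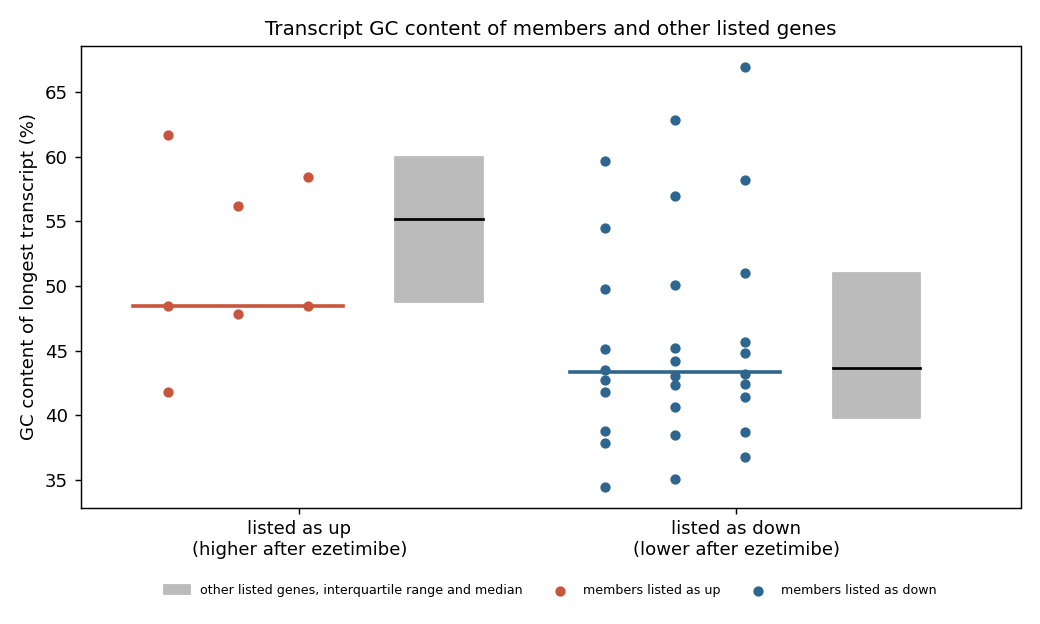
GC content of the longest GENCODE transcript, in percent, for the 7 genes listed as up (left) and the 30 listed as down (right) after ezetimibe; points are genes, coloured lines their medians, and grey boxes the interquartile range and median of the other listed genes. The medians of the 37 genes are 48.5% for up and 43.3% for down, with overlapping ranges.

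Genes up also had the shorter transcripts and gene spans at the median. The longest transcript had a median of 3994 bases for the 7 genes up and 4308.5 bases for the 30 down, beside 2859.5 and 4401 bases over all listed genes. The gene span had a median of 16587 bases for genes up and 44792.5 bases for genes down, and ranged over 5233 bases for HDDC3 and 917258 bases for DPYD. The 24 genes also listed under Metabolic pathways had 3 up and 21 down, and the 13 others, mostly phosphodiesterases and hydrolases, 4 up and 9 down. The share up was 32.5% of all listed genes and 30.4% of the 392 listed genes under Metabolic pathways. The number of pathways per gene ran from 1 to 7.

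For each motif searched in the promoters of the 37 genes, the exact 95% interval of the share with a match included the shares of listed genes and of all promoters. In windows from 250 bases before to 50 bases after the RefSeq start, found for 34 of the 37 genes (none for ENPP4, ENTPD4 and PDE7A), 6 motifs were searched on both strands. They were the E-box CACGTG of MYC and relatives, the E2F cores GGCGGGAA, GCGCGAAA and GGCGCGAA, the last 2 of which can overlap, the NRF1 core (GCGCA and GCGC with 1 free base between them), CCAAT, the ATF4 element TGATGNAAN (CARE) and the cAMP response element TGACGTCA (CRE). Shares are given beside those of the 1745 listed genes with a promoter and of all 27305 promoters. An E-box was in 4 of 34 windows (11.8%, exact 95% interval 3.30 to 27.5), beside 10.7% of listed genes and 7.43% of all promoters. An NRF1 core was in 3 windows (8.82%, 1.86 to 23.7), beside 10.7% of listed genes and 6.28% of all promoters. A CCAAT box was in 7 windows (20.6%, 8.70 to 37.9), beside 37.5% of listed genes and 35.7% of all promoters. An E2F core was in 1, that of RRM1 (2.94%), beside 6.99% and 4.38%, and a CRE in 1, that of PDE7B (2.94%), beside 2.98% and 1.98%. CARE was in 0 windows, beside 2.29% of listed genes and 3.67% of all promoters. By direction, a match to any motif was in 2 of the 7 windows of genes up, NUDT16 with CCAAT boxes and UCKL1 with an E-box, and in 10 of the 27 windows of genes down. A match is a description of letters and no match says only that they are not in this window. The other 3 stretches that the order of lists puts next are those of DCK with an E-box (chr4:70993521-70993550, plus strand), ENTPD5 with an NRF1 core (chr14:74019331-74019360, minus strand) and NME7 with a CCAAT box on the opposite strand (chr1:169367876-169367905, minus strand), all of genes listed as down. They also overlap an exon of another transcript of the same gene.
DCK: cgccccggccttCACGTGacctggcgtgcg
ENTPD5: cgcgcggagaGCGCACGCGCccgtgacgta
NME7: ggcgggtctgtcgATTGGatgaacgcagct

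**Figure D4:**
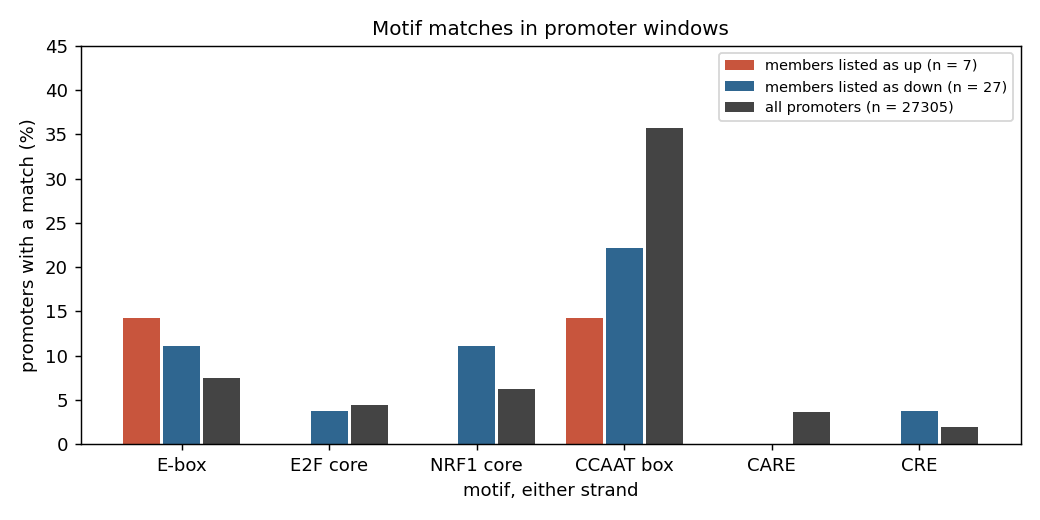
Share of promoter windows with at least 1 match to each motif on either strand, in percent, for the genes of the 37 listed as up (7 windows), those listed as down (27 windows) and all 27305 RefSeq promoters. The CCAAT box is the most frequent motif in all promoters at 35.7%, and CARE has no match among the 37 genes.

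Exons of 21 of the 37 genes overlap exons of another gene in GENCODE, and the labels do not say whether the authors' counting used strand. Coding partners were found for 11 genes, 4 partners on the same strand and 9 on the opposite one. Of these 13 partners, 3 were listed, beside 25.2% of background genes listed as changed. Each was down like its partner, beside 67.5% of all listed genes: MOB1B beside DCK, ATP1B1 beside NME7 and ENOSF1 beside TYMS. The other 10 were not listed, among them TAF9, which shares its strand with AK6, and UNC45A, which lies opposite HDDC3. Directions of these genes are uncertain to the extent that reads were shared. The 16 genes without an overlap had 4 up and 12 down.

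The table has no levels, so the liver label could not be checked against marker levels. Of 11 hepatocyte markers 4 were listed, all down (FGA, FGB, FGG and CPS1), beside 67.5% of all listed genes. Among background genes, 25.2% were listed as changed. Of 5 cholangiocyte and 5 fibroblast markers, 2 and 3 were listed, all down, of 4 immune markers 1, as up, and of 4 endothelial markers 0. Their part in the directions of the 37 genes was not tested.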

How the data were processed

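Total RNA of 1 ezetimibe culture (24 h) and 1 control culture was sequenced. HISAT2 2.0.4 and StringTie 1.3.0 are named per the submitters' processing notes; the labels give no build, annotation, threshold or depth. Per the file headers, the authors' deposited table gives for 327 KEGG pathways counts of changed, up, down and background genes, the gene lists, an enrichment ratio (rich factor), its p-value and its q-value, and the lists matched the counts in all 327. Genes were parsed by Ensembl ID. Members, lists and motifs were chosen with earlier results of these data known. Role lists hold 235 symbols, of which 234 matched a gene ID. Some genes of the lists are not reported here. All 37 genes were named by role, with positions for synthesis, salvage and deoxynucleotide genes; promoter stretches were printed for up to 6 genes with a motif. GENCODE release 29 matched all 37 (2237 of 2238 listed genes had a transcript), and 27 of 34 promoter windows had the 30 bases after their start in a transcript of the gene as written, 0 on the reverse strand. No test was made. The parsing and motif search were tested on simulated data. Protein identity of related enzymes was planned and not analysed here. Python 3.11.15, pandas 2.3.3, SciPy 1.17.1 and Matplotlib 3.10.9 were used.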

Additional observations from a re-analysis of the deposited data

How the results depend on the processing

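No paired analysis was possible because there is 1 library per condition, so no replicate could be left out either. The share up of 18.9% among the 37 genes moved beyond its counting interval in 2 of 9 alternatives, which split the genes by GC content: it was 4.55% below the median of all listed genes and 40.0% at or above it. In the other 7 it lay within that interval. It was lowest at 9.52% for the 21 of the 37 genes under Pyrimidine metabolism, including those also under Purine metabolism. It was highest without genes whose exons overlap another gene, with 4 up of 16. That alternative and leaving out deoxynucleotide supply were chosen after seeing the data. Leaving out RNA polymerase subunits or genes under more than 20 pathways took out none of the 37. The share of all listed genes was 30.1% in metabolic pathways only, against 32.5%. With the mean over all transcripts, the median GC content of the 7 genes up was 58.6%, against 48.5%; the cause was not tested. Counting bases before the start only left the share of the 34 promoters with each of the 6 motifs the same. Depth, levels and sizes of change are unknown, so genes listed with small and large changes cannot be told apart.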

Other observations

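RNA polymerase subunits, which use ribonucleotides and lie outside both nucleotide pathways in this table, were split. Of 33 subunits 15 were listed, beside 25.2% of background genes. Of these, 8 were up (POLR1C, POLR1D, POLR1H, POLR2C, POLR2I and POLR3C among them). The other 7 were down (POLR1F, POLR2B, POLR2K, POLR2L and POLR3GL among them), beside 67.5% of all listed genes. Of 9 genes in the list of nucleoside and nucleobase transporters, 0 were listed, SLC29A1 among those not listed. The list also holds SLC23A2, which is known as a vitamin C carrier. A gene without a pathway annotation could not be listed, so the 0 does not show that these transporters were unchanged. Of the 24 listed genes under Drug metabolism - other enzymes in the authors' deposited table, 11 belong to the 37 genes, 2 as up and 9 as down, and the 13 others had 3 up and 10 down.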
